A study of Mus musculus with 2 samples.

Results

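The genes described here encode the core and regulatory proteins of pre-mRNA splicing. They were chosen by gene name: every probe set whose single platform gene symbol begins with Srsf, Hnrnp, Snrp, Sf3a, Sf3b or Lsm, with 1 imprinted gene of the Snrp prefix set aside. This gave 58 genes read by 161 probe sets, of 18193 genes and 34945 probe sets with 1 gene symbol. They fall into SR proteins (10 genes), hnRNP proteins (19), snRNP proteins (8), subunits of SF3 (9) and LSm proteins (12). The rule reads gene names only and uses no measured value, although families and members were chosen with earlier results of these data known.

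RNA came from the pancreas of male C57BL/6J mice at 10 weeks of age. The methionine-deficient group had mothers fed a diet deficient in methionine during pregnancy, and the mothers of the control group ate control diet. Both groups were weaned at 3 weeks onto control diet and, per the labels, had no treatment of their own after birth. Each group was measured as 1 pool of RNA on 1 Affymetrix array, and the sources used here do not say how many mice a pool held, so every value below is a single measurement and no p-value could be computed. The comparison addresses whether splicing factor transcripts in the adult pancreas differ with the mother's diet.

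Pre-mRNA splicing removes introns in a complex built from small nuclear ribonucleoproteins (snRNPs), each made of a short RNA and a set of proteins. SR proteins bind exons through an RNA recognition motif and recruit the spliceosome through a domain rich in arginine and serine, while hnRNP proteins coat the nascent transcript and often keep exons out. Sm proteins form the ring around most spliceosomal RNAs, SF3 belongs to the U2 snRNP that recognises the branch point, and LSm proteins form the related ring on U6 RNA. Many Sm and hnRNP proteins carry methylated arginines, whose methyl groups come from S-adenosylmethionine, the product of methionine.

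Each array held 45101 probe sets, and the median intensity was 171 in the methionine-deficient pool and 165 in the control pool. The tissue label was borne out by acinar markers, of which the 10 measured had intensities of at least 3950 in both pools and a median log2 difference of -0.05. As a measure of RNA integrity, the Actb control probes gave a 3'/5' intensity ratio of 1.76 in the methionine-deficient pool and 1.46 in the control pool. For Gapdh this ratio was 1.11 in the methionine-deficient pool and 0.973 in the control pool. B and plasma cell markers had a summed intensity of 5867 in the methionine-deficient pool and 11012 in the control pool, with 5 of the 6 past the level filter lower. Adipocyte markers summed to 13306 and 16293 in these pools, with 4 of the 4 past that filter lower. Higher values were found for 3 of 4 duct markers (median 0.41), 3 of 4 endothelial markers (0.36), 5 of 6 fibroblast and stellate markers (0.19) and 3 of 3 nerve and Schwann cell markers (0.24). The summed intensity of the duct markers went the other way, at 9632 in the methionine-deficient pool and 10909 in the control pool. The brightest duct marker was the lower one (-0.28, spread 0.18). Macrophage markers had 3 of 7 higher and 4 lower (median -0.01), with differences from -0.19 to 1.01. Their summed intensity was 10534 in the methionine-deficient pool and 9092 in the control pool. No measured marker was at 0, and the part of cell makeup or RNA quality in the results below was not tested. In bulk RNA, fewer cells of a type and less RNA per cell cannot be told apart.

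A gene was read by its brightest probe set, and 56 of the 58 genes had one at or above the median level over both arrays (intensity 150). Differences are log2(intensity + 1) in the methionine-deficient minus the control pool. As the error of a single difference, the spread between probe sets of 1 gene is given, which was 0.79, 0.59, 0.42, 0.29 and 0.18 in 5 bins from dimmest to brightest. It covers probe noise within these arrays and not the variation between mice. Of the 56 genes, 35 lay in the brightest bin.

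None of the 56 splicing factor genes differed by as much as 1.5-fold. Of all 11848 genes that passed, 10.4% reached 1.5-fold in the higher and 9.00% in the lower direction, and for 2-fold these shares were 3.87% and 2.80%. Splicing factors are read by bright probe sets, however, and 39 of the 56 lay among the 2962 brightest genes, where 1.22% reached 1.5-fold in the higher and 1.18% in the lower direction. Another 12 lay among the next 2962 genes by level, where these shares were 4.36% and 4.93%, and 5 among the 2962 after those, where they were 12.9% and 11.2%. The median log2 difference of the 56 genes was 0.00, with 29 higher and 27 lower, and over all genes it was also 0.00 with 5924 higher and 5924 lower. The differences exceeded their own probe-set spread in 15 of 56 genes (26.8%), against 34.4% of all genes.

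**Figure D1:**
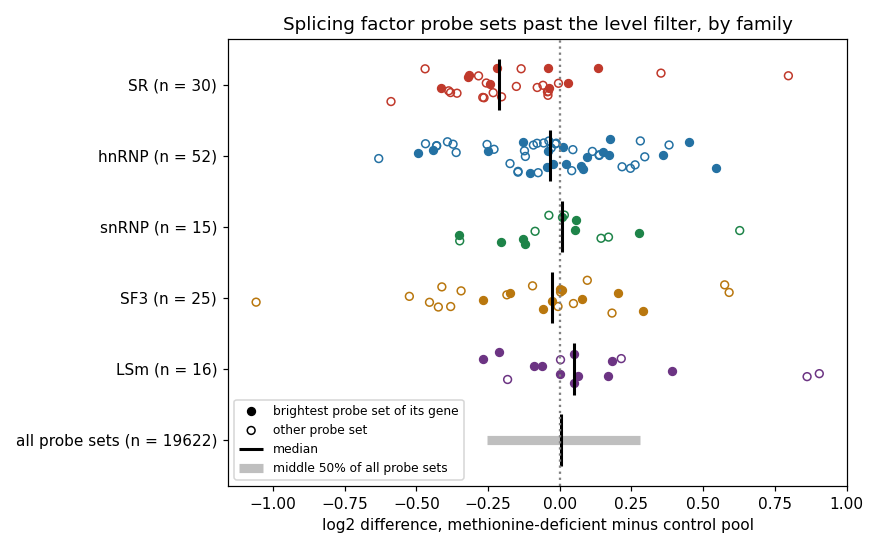
Log2 difference (methionine-deficient minus control pool) of each of the 138 splicing factor probe sets past the level filter, by family, with the brightest probe set of each gene filled, family medians as black bars and the middle 50% of all 19622 probe sets in grey. SR probe sets lie mostly left of 0 with a median of -0.21, while the other families lie around 0.

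The share of probe sets that were lower varied between the families, and no test of this could be made. SR genes were lower in the methionine-deficient pool in 7 of 9 cases, with a median of -0.22. Their 30 probe sets past the filter were lower in 26 cases (86.7%), with a median of -0.21, against 49.6% lower and a median of 0.00 over all 19622 probe sets. For 5 of the 9 SR genes (55.6%), Srsf1, Srsf2, Srsf3, Srsf5 and Srsf6, the difference exceeded its own spread, against 34.4% of all genes. All 5 were lower. A difference beyond 2 spreads was found in 1 of the 9 (Srsf3, 11.1%), against 8.15% of all genes. hnRNP probe sets were lower in 30 of 52 cases (57.7%), SF3 in 14 of 25 (56.0%), snRNP in 7 of 15 (46.7%) and LSm in 5 of 16 (31.2%). In the brightest bin alone, 16 of 18 SR probe sets were lower (88.9%), against 17 of 31 hnRNP probe sets and 54.6% of all probe sets. Leaving aside the brightest probe set of each gene, 19 of 21 SR probe sets were lower, against 22 of 33 hnRNP probe sets and 3802 of 7774 for all genes. Read through the brightest of these other probe sets, however, the SR gene median was -0.09. Probe sets of 1 gene share a transcript and all share the same 2 arrays, so these counts are not independent observations of the diet.

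Srsf3, a small SR protein known to regulate its own splicing and to help export mRNA, had the largest SR difference in a brightest probe set. Its intensity was 1444 in the methionine-deficient pool and 1923 in the control pool, which is -0.41 on the log2 scale (spread 0.18). Its 5 other probe sets read 1098, 777, 611, 579 and 309.9 in the methionine-deficient pool, against 1130.1, 996, 744, 755 and 323 in the control pool. All 6 probe sets were therefore lower, by between 0.04 and 0.41. The 5 others differed by -0.04 (spread 0.29), -0.36 (0.29), -0.28 (0.42), -0.38 (0.42) and -0.06 (0.59). Of these 5, only the -0.36 exceeded its spread.

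Srsf6, which acts in alternative splicing of many transcripts, had an intensity of 13235 in the methionine-deficient pool and 16512 in the control pool (log2 difference -0.32, spread 0.18). Its other probe sets read 9513, 5412 and 5112 in the methionine-deficient pool, against 9543, 6357 and 5885 in the control pool. All 4 were lower, although the second was close to equal in both pools. Srsf2, the speckle protein also called SC35, had 4492, 2915, 1630.0 and 414 in the methionine-deficient pool, against 5598, 3003, 1810.4 and 497 in the control pool. Its differences were -0.32 (spread 0.18), -0.04 (0.18), -0.15 (0.18) and -0.26 (0.42), and only the first exceeded its spread.

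These 3 genes were the SR genes with more than 1 probe set and all of them lower, and the sequence just upstream of their transcription start is shown so that shared promoter letters can be compared. The stretches are the 150 bases before the annotated start in RefSeq (GRCm38.p6), 5' to 3' on the strand of the gene. Capitals mark the GC box of SP and KLF factors (GGGCGG), the box bound by NFY (CCAAT) and TGACG, each on either strand. TGACG is only a part of the cAMP response element, or CRE, and the full element was not searched. None of these letter strings holds another. Srsf2 lies at chr11:116853095-116853244 on the minus strand, Srsf3 at chr17:29032510-29032659 on the plus strand and Srsf6 at chr2:162931358-162931507 on the plus strand.
Srsf2: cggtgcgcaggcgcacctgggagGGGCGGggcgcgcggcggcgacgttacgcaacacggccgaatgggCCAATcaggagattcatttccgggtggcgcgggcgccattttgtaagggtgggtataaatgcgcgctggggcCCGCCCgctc
Srsf3: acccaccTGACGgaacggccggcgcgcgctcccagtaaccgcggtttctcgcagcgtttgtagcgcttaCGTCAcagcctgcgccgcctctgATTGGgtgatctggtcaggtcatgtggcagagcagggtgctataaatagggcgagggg
Srsf6: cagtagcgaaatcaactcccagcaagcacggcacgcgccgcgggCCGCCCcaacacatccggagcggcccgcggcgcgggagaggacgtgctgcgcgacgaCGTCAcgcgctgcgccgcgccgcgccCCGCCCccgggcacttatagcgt

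Srsf3 and Srsf6 each held at least 1 TGACG in these bases, while Srsf2 held GC boxes and a CCAAT box but no TGACG. Over the 250 bases before the start, TGACG was in 6 of 10 SR genes and 8 of 17 hnRNP genes. It was in 1 of 7 snRNP genes, 0 of 7 SF3 genes and 0 of 9 LSm genes. Of the 9549 genes past the filter with a promoter sequence, 26.6% held TGACG. GC boxes were in 9 of 10 SR promoters and in 57.4% of those 9549, and CCAAT boxes were in 3 of 10 SR promoters and in 35.5% of them. The ETS motif searched (CCGGAAG, either strand) was in 6 of 7 SF3 promoters, namely those of Sf3a1, Sf3a2, Sf3a3, Sf3b2, Sf3b3 and Sf3b6, and in 13.1% of the 9549. The SR promoters were rich in GC, with a median of 68.2% and 29 CpG sites, against 59.6% and 15 in the 9549. The cores of NRF1 (CGCATGCG) and YY1 (AAGATGG) sites and the E-box (CACGTG) were also searched, and each was in 1 of the 50 promoters of splicing factor genes, against 2.97%, 4.30% and 8.47% of the 9549. In all, 50 of the 58 genes had a promoter sequence, and the first listed start was used where a gene had several. A match to these letters is a description and was not tied to the differences in level.

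Srsf1, the founding SR protein, was lower in 6 of its 7 probe sets. The 4 brightest read 5730.4, 3351, 2632 and 1846 in the methionine-deficient pool, against 6788, 3679, 3170.2 and 2556 in the control pool, and their log2 differences lay between -0.47 and -0.13. The next 2 read 1763 and 439.6 in the methionine-deficient pool, against 1813 and 464 in the control pool. The dimmest read 226 in the methionine-deficient pool and 177 in the control pool (log2 difference 0.35), in the bin where the spread was 0.79.

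**Figure D2:**
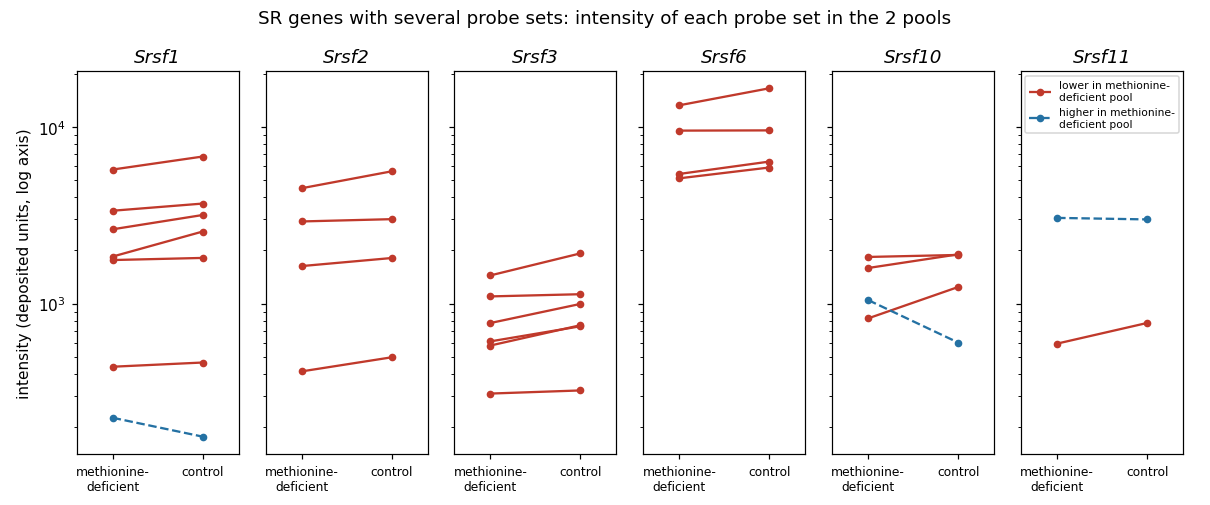
Intensity (log axis) of each probe set past the level filter for the 6 SR genes with several probe sets, in the methionine-deficient pool (left point) and the control pool (right point). Solid red lines rise to the right in all probe sets of Srsf2, Srsf3 and Srsf6, and dashed blue lines mark the 3 probe sets that were higher in the methionine-deficient pool.

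Srsf5, known as an SR protein that responds to growth signals, was read by 1 probe set at 7233 in the methionine-deficient pool and 8419.9 in the control pool (log2 difference -0.22, spread 0.18). Srsf4 had 1364 in the methionine-deficient pool and 1403 in the control pool, a difference of -0.04 that was smaller than its spread of 0.29. Srsf9 went the other way, at 3097 in the methionine-deficient pool and 2826 in the control pool (0.13, spread 0.18). These single probe sets have no second reading within the arrays.

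Srsf10, a splicing repressor in its dephosphorylated form, had probe sets that disagreed. They read 1836, 1590.1, 825 and 1047 in the methionine-deficient pool, against 1885, 1899, 1242 and 602 in the control pool, with log2 differences of -0.04, -0.26, -0.59 and 0.80. The last pair differ by more than 1.5-fold in opposite directions, so the gene has no settled direction here. Srsf11 had 3054 in the methionine-deficient pool and 2993 in the control pool (0.03), and its second probe set had 594 and 777 in these pools (-0.39). Srsf12 was below the level filter, at 9.96 in the methionine-deficient pool and 17.1 in the control pool.

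The SR median depended on which genes were counted. Without Srsf1, Srsf2, Srsf3 or Srsf6, each left out alone, it was -0.13, without Srsf5 it was -0.14, and without any 1 of Srsf4, Srsf9, Srsf10 or Srsf11 it was -0.23. The share of SR probe sets that were lower stayed between 83.3% without Srsf3 and 89.7% without Srsf9.

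Among hnRNP genes 11 were higher and 8 lower, with a median log2 difference of 0.02. The probe sets with the highest intensities differed little. Hnrnpab, an RNA-binding protein of the A/B group, had 20049 in the methionine-deficient pool and 18791 in the control pool (0.09), although its 4 other probe sets past the filter were lower, by up to 0.36. Hnrnpk, which binds C-rich stretches, had 11092 in the methionine-deficient pool and 11424 in the control pool (-0.04), and all 4 of its probe sets were lower by less than 0.18. Hnrnpf, which binds G-rich stretches, had 10479 in the methionine-deficient pool and 10813 in the control pool (-0.05). The differences of these brightest probe sets lay within the spread of 0.18, while the Hnrnpab probe set at -0.36 exceeded its spread of 0.29.

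The largest higher values were those of Hnrnpr, Hnrnpul1 and Hnrnpa0. Hnrnpul1, a relative of the scaffold protein hnRNP U, had 2101 in the methionine-deficient pool and 1536 in the control pool (0.45, spread 0.18). Hnrnpa0 had 2039 in the methionine-deficient pool and 1589.8 in the control pool (0.36, spread 0.18). Both rest on 1 probe set. Hnrnpr had 1992 in the methionine-deficient pool and 1365 in the control pool (0.55, spread 0.18), but its 3 other probe sets past the filter were lower, at -0.12, -0.39 and -0.63.

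The largest lower values were those of Hnrnpu, Hnrnpul2 and Hnrnpll, and in each of these genes another probe set was higher. Hnrnpu, the scaffold protein also called SAF-A, had 3425 in the methionine-deficient pool and 4829 in the control pool (-0.50, spread 0.18), while its 4 other probe sets lay between -0.37 and 0.28. Hnrnpul2 had 1256 in the methionine-deficient pool and 1705 in the control pool (-0.44, spread 0.29), and its second probe set gave 0.26. Hnrnpll, known in lymphocytes as the regulator of CD45 exon choice, had 1795 in the methionine-deficient pool and 2136 in the control pool (-0.25, spread 0.18), and its second probe set gave 0.38. Hnrnpa1, Hnrnpa2b1 and Hnrnpc, which are classical core hnRNP proteins, had 0.08, 0.15 and 0.02 in their brightest probe sets. Hnrnpd, also called AUF1, was the only multi-probe hnRNP gene with every probe set past the filter higher, at 0.17 and 0.14. The remaining genes, Hnrnpdl, Hnrnph1, Hnrnph2, Hnrnph3, Hnrnpl and Hnrnpm, lay between -0.13 and 0.17.

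The 8 snRNP genes split into 4 higher and 4 lower, at a median of -0.06. Among Sm proteins, Snrpf had 1259.8 in the methionine-deficient pool and 1606 in the control pool (-0.35, spread 0.29). Snrpb had 2288 in the methionine-deficient pool and 2637 in the control pool (-0.21, spread 0.18), and its second probe set was lower by 0.04. Snrpe had 6969 in the methionine-deficient pool and 7570.5 in the control pool (-0.12, spread 0.18). The values of the Sm ring subunits did not share a direction, since Snrpd3 was higher in all 3 of its probe sets. These gave 0.06 (spread 0.18), 0.14 (0.29) and 0.63 (0.59), and only the last, the dimmest, exceeded its spread. Snrpg had 4402 in the methionine-deficient pool and 4242 in the control pool (0.05), while its second probe set gave -0.35.

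The remaining snRNP genes encode proteins of a single particle. Snrpc, a U1 protein that helps recognise the 5' splice site, had 547 in the methionine-deficient pool and 451 in the control pool (0.28, spread 0.42). The U2 partners Snrpa1 and Snrpb2 bind each other on U2 RNA. All 3 probe sets of Snrpa1 were higher, by between 0.01 and 0.17, and both Snrpb2 probe sets past the filter were lower, by 0.09 and 0.13. All of these were smaller than the spread of 0.29 for the brightest probe set of each gene.

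The 9 SF3 genes had a median of 0.00, with 5 higher and 4 lower. Sf3b1, the branch point clamp that is recurrently mutated in human myelodysplasia, had 2692 in the methionine-deficient pool and 3035 in the control pool (-0.17, spread 0.18), and 3 of its 4 probe sets were lower. Sf3b2 was lower in 4 of 6 probe sets, with -0.06 in the brightest. Sf3b5 had 2898 in the methionine-deficient pool and 2954 in the control pool, and Sf3b6, which contacts the branch point, had 2958 and 2806 in these pools. Sf3b3 had 621 in both pools.

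Sf3b4 and Sf3a3 had probe sets that disagreed. Sf3b4 read 3439 and 1693 in the methionine-deficient pool, against 2813 and 2320.3 in the control pool (0.29 and -0.45). Sf3a3 read 425 and 522 in the methionine-deficient pool, against 512 and 350.1 in the control pool (-0.27 and 0.57). Sf3a1 had 773 in the methionine-deficient pool and 671 in the control pool (0.20, spread 0.29), but its second probe set past the filter gave -1.06. That probe set read 199 in the methionine-deficient pool and 416 in the control pool, with a spread of 0.59. It was the only one of the 138 that differed by 2-fold. Among all 19622 probe sets past the filter, 817 were higher and 644 lower by this much. Of the 3924 in the same level bin as this Sf3a1 probe set, 217 were higher and 193 lower by this much.

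The 11 LSm genes past the filter split into 7 higher and 4 lower, at a median of 0.05. In the ring that binds the end of U6 RNA, Lsm6 had 2729.6 in the methionine-deficient pool and 3288 in the control pool (-0.27, spread 0.18), but its other probe sets past the filter gave 0.21 and 0.00. Lsm4 had 1387 in the methionine-deficient pool and 1607 in the control pool (-0.21, spread 0.29), and Lsm7 had -0.09. Lsm2, Lsm3 and Lsm8 lay between -0.06 and 0.07. Lsm1, which replaces Lsm8 in the cytoplasmic ring that promotes mRNA decapping, had 958 in the methionine-deficient pool and 844 in the control pool (0.18, spread 0.29).

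For the LSm proteins outside these rings and past the filter, no brightest probe set differed by more than its spread. Lsm10, a subunit of the U7 snRNP for histone mRNA, was at 812 and 811 in the methionine-deficient and control pools. Lsm12 had 639.8 in the methionine-deficient pool and 488 in the control pool (0.39, spread 0.42), and its second probe set gave 0.90. Lsm14b had 2028 in the methionine-deficient pool and 1805 in the control pool (0.17, spread 0.18). Lsm14a, like Lsm14b a protein of cytoplasmic mRNA granules, had 1519 in the methionine-deficient pool and 1466 in the control pool (0.05), but its other probe sets gave -0.18 and 0.86. Lsm11, the partner of Lsm10, was below the level filter at 245 in the methionine-deficient pool and 35.7 in the control pool, where the background can set the value.

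How far probe sets of 1 gene agreed sets a limit on these values. Probe sets were said to disagree where at least 1 was 1.2-fold or more higher and another 1.2-fold or more lower. This was so in 6 of the 36 splicing factor genes with several probe sets past the filter (16.7%), against 20.4% of all such genes, and the 6 were Srsf1, Srsf10, Hnrnpr, Hnrnpu, Sf3a3 and Sf3b4. A shared direction was found in 11 of the 36 (30.6%), against 39.6% of all such genes. The 11 were lower for Srsf2, Srsf3, Srsf6, Hnrnpk, Snrpb and Snrpb2 and higher for Hnrnpd, Snrpa1, Snrpd3, Sf3a2 and Lsm12. The shares over all such genes were not matched for the number of probe sets per gene or their level. Across these 36 genes, which are not independent replicates, Pearson's r between the 2 brightest probe sets of a gene was -0.14 and Spearman's rho was -0.24. Over all 4819 such genes r was 0.03 and rho 0.04. The 2 probe sets had the same sign in 17 of the 36 genes (47.2%) and in 52.1% of all such genes, which is close to even in both. The same 2 arrays underlie every point.

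**Figure D3:**
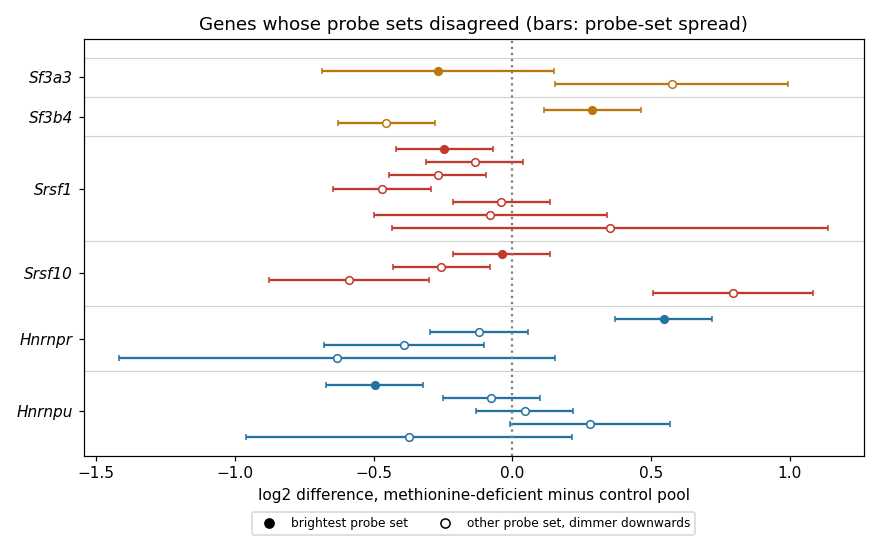
Log2 difference (methionine-deficient minus control pool) of every probe set past the level filter for the 6 genes whose probe sets disagreed, ordered within a gene from brightest (top, filled) to dimmest, with the probe-set spread of its level bin as the bar. Only 1 of the 7 Srsf1 probe sets lies right of 0, and it is the dimmest, while the 2 probe sets of Sf3b4 lie on opposite sides of 0 by more than their spread.

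Over single probe sets, 5 of 138 reached 1.5-fold in the higher and 3 in the lower direction, against 11.3% and 10.0% of all probe sets past the filter. In the 2 brightest bins, which held 106 of the 138, the counts were 2 higher and 1 lower, against 2.64% and 2.50% of all probe sets there, a count near the background. The 5 belong to Srsf10, Snrpd3, Sf3a2, Lsm12 and Lsm14a and the 3 to Srsf10, Hnrnpr and Sf3a1. None was the brightest probe set of its gene.

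Other genes of the splicing pathway were read from lists drawn up with earlier results of these data known. The factors that regulate SR proteins by phosphorylation, the SRPK and CLK families with Dyrk1a and Prpf4b, were lower in 5 of 9 genes (median -0.07). Clk3 had 444 in the methionine-deficient pool and 586 in the control pool (-0.40), Dyrk1a had -0.35 and Clk2 had 0.33, each with a spread of 0.42. Another probe set of Dyrk1a gave 0.16. Srpk3 had 0.50 but its second probe set gave -1.10. The SR-related and exon definition factors had 14 of 24 genes lower (median -0.05). Sugp2 had -0.50 with its 3 probe sets all lower, Srek1 had -0.37, Scaf8 had 0.60 with its 3 probe sets all higher, and Rbm5 had 0.39 with probe sets that disagreed.

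Proteins of the U1, U2 and minor snRNPs outside the prefixes had 13 of 18 genes lower (median -0.20). Snrnp25, of the minor U11/U12 particle, had 307 in the methionine-deficient pool and 615 in the control pool (-0.998, spread 0.42), from 1 probe set past the filter. Rnpc3, the U11/U12 protein that bridges both particles, had 497 in the methionine-deficient pool and 804 in the control pool (-0.69, spread 0.42), with both probe sets lower. Other members of the minor particles did not go this way, with Snrnp48 at 0.51 and Snrnp35 at 0.09, while Zcrb1 had -0.28. Cherp had 0.54, and the probe sets of Cherp and Snrnp48 disagreed. The median moved to -0.34 over the probe sets that were not the brightest.

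Factors that assemble and import snRNPs had 9 of 17 genes higher (median 0.03). Gemin2, of the SMN complex that loads Sm rings, had 212 in the methionine-deficient pool and 407 in the control pool (-0.94, spread 0.59). Ncbp1, the large cap-binding subunit, had 590.4 in the methionine-deficient pool and 1059.7 in the control pool (-0.84, spread 0.29). Prmt5, which methylates arginines of Sm proteins with methyl groups from S-adenosylmethionine, had 683 in the methionine-deficient pool and 431 in the control pool (0.66, spread 0.42). Gemin8 had 0.57 with a spread of 0.79. Each of these 4 rests on 1 probe set.

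The U4/U6.U5 subunits had a median of -0.02 with 9 of 17 lower. Snrnp40 had 1842 in the methionine-deficient pool and 875 in the control pool (1.07) and Eftud2 had 0.72, but in both genes another probe set was lower, at -0.59 and -0.32. Prpf3 had -0.67 from 1 probe set, within its spread of 0.79, and Usp39 had -0.36 with both of its probe sets lower. The Prp19 complex and splicing helicases had a median of -0.03 with 14 of 27 lower. Ctnnbl1 had 163 in the methionine-deficient pool and 521 in the control pool (-1.67, spread 0.59). Cwc27 had -0.63, within its spread of 0.79, and Aqr had 1.05 (spread 0.29). Ctnnbl1, Cwc27 and Aqr each rest on 1 probe set. Snw1 had 0.53 with both of its probe sets higher.

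Regulated splicing factors outside the prefixes had 22 of 36 genes higher (median 0.06). Rbm38 had -1.40 (spread 0.59) and Tia1 -1.19, with probe sets of Tia1 that disagreed, and Rbm24 had 1.202 with a spread of 0.79. Rbm38 and Rbm24 each rest on 1 probe set past the filter. Cirbp, a cold-inducible RNA-binding protein whose level follows body temperature through the day, had 942 in the methionine-deficient pool and 526 in the control pool (0.84, spread 0.29). Cirbp also rests on 1 probe set past the filter. Epithelial regulators Esrp1 and Esrp2 had 0.04 and 0.19. Of the 7 exon junction and decay factors past the filter, 4 were lower, with Smg6 at 1.04, Smg1 at 0.20 with probe sets that disagreed, Smg5 at -0.31 and Rbm8a at -0.28. Smg6 (spread 0.42), Smg5 and Rbm8a each rest on 1 probe set past the filter. Differences between these lists were not tested.

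**Figure D4:**
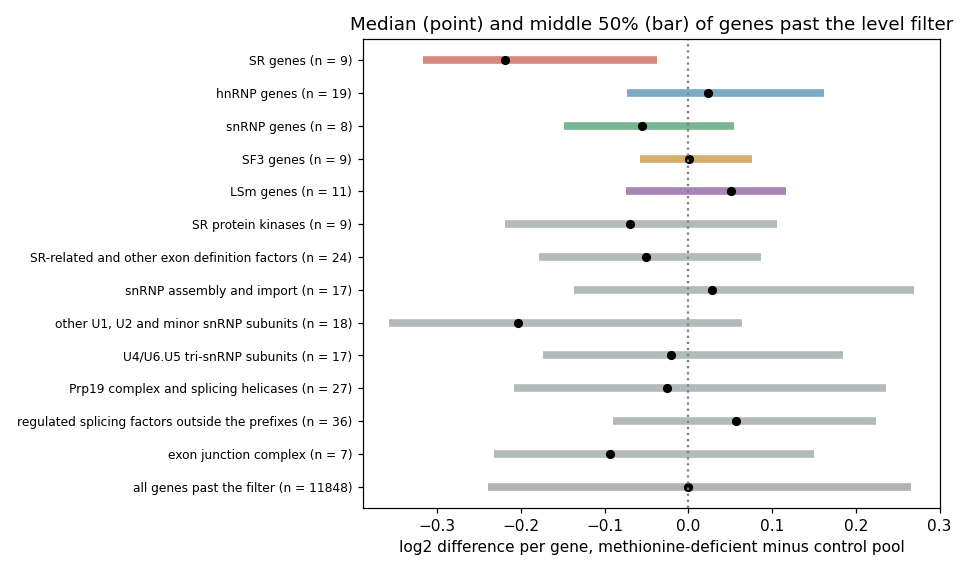
Median (point) and middle 50% (bar) of the log2 difference per gene, methionine-deficient minus control pool, for the 5 splicing factor families, 8 other splicing lists and all 11848 genes past the level filter. The SR genes and the other U1, U2 and minor snRNP subunits have medians of -0.22 and -0.20, and the other medians lie between -0.09 and 0.06.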

How the data were processed

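The authors deposited linear intensities per probe set, 1 array of pooled RNA per group. Per the labels, RNA was extracted with Trizol and labelled with a 3' IVT kit. The sources used here do not give the software, background correction or scaling, but both arrays had the same mean of 500.003 after trimming 2% at each end. Detection calls were not used here. Probe sets were named from the 2016 platform annotation, with current symbols by gene identifier, and 11 probe sets with several symbols of these prefixes were left out.

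Values were taken as log2(intensity + 1) without further scaling. A gene had the value of its brightest probe set and was kept if that reached the median of all probe sets. The spread is the robust SD of differences between neighbouring probe sets of 1 gene, divided by the square root of 2. No test was possible with 1 array per group, and the number of arrays limits the precision. The steps were tested on simulated data. Families, lists and members were chosen with earlier results of these data known. Named in full are the 3 brightest, 3 highest and 3 lowest genes of a family, all with disagreeing probe sets, and up to 2 per direction of a list. Other genes named were chosen after their values were seen. Python 3.11.15, numpy 2.4.6, pandas 2.3.3 and scipy 1.17.1 were used. Promoters are from RefSeq.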

Additional observations from a re-analysis of the deposited data

How the results depend on the processing

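With 1 array per group no replicate could be left out, and no test was lost or gained. No paired analysis was possible because each group is 1 pooled array. No gene named Lsmem was on the list, so leaving these out was not run. The median of SR genes stayed below 0 in all 10 alternatives, from -0.0889 over only the probe sets that were not the brightest, an alternative chosen after seeing the data, to -0.27 with median centring. Median centring lowers all genes by 0.05, and it gave medians of -0.0513 for all splicing factor genes, -0.0285 for hnRNP genes, -0.0518 for SF3 genes, -0.26 for SR probe sets, -0.10 for SR-related factors and 0.0045 for regulated splicing factors. With the mean over probe sets the medians were -0.0636 for all splicing factor genes, -0.0250 for hnRNP, -0.0824 for SF3, -0.0092 for SR-related factors, -0.10 for snRNP assembly and 0.0155 for regulated factors. Over only the other probe sets they were -0.0380 for all splicing factor genes, -0.18 for SF3, 0.21 for LSm, -0.21 for snRNP assembly, -0.34 for other U1, U2 and minor subunits, -0.17 for the tri-snRNP, 0.0688 for the Prp19 complex and 0.72 for the exon junction list, where it is a single probe set of Smg1, a gene whose probe sets disagreed, and the regulated factors turned to -0.0742. The Prp19 list had 0.0839 with the 75th percentile filter, and the SR kinases had -0.21 without the less specific probe sets (suffix x or s), where 3 genes disagreed in place of 6. Counts past 1.5-fold stayed at 0 except for Lsm11 (1 higher, also past 2-fold) and Srsf12 (1 lower) with no filter, Lsm12 (1 higher) by the mean, Sf3a2 (1 higher) without those probe sets, and Lsm12, Sf3a2 (2 higher) and Sf3a1 (1 lower, also past 2-fold) over only the other probe sets. The cause of these moves was not tested beyond which probe sets enter. Of the 56 genes, 47 kept their sign with median centring, 54 with quantile or loess scaling and 42 with the mean over probe sets. Over only the other probe sets, 17 of 36 genes kept their sign and 23 of the 36 moved. The number of arrays limits the precision of all these values.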

Other observations

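The 23 splicing factor probe sets below the level filter scattered widely. They were higher in 11 and lower in 12 cases, and a 2-fold difference was reached by 8 of the higher and 5 of the lower ones. The same size was reached by 4491 higher and 4125 lower ones among the 15323 probe sets with 1 gene symbol below the filter. Lsm6 had 133 in the methionine-deficient pool and 9.40 in the control pool in such a probe set, while Hnrnpc had 2.77 and 50.1 and Hnrnpab had 51.5 and 336 in these pools. The brighter probe sets of the same genes did not share these sizes, with 0.00 to 0.21 and -0.27 for Lsm6, -0.47 and 0.02 for Hnrnpc and between -0.36 and 0.09 for Hnrnpab. Over all 15323 probe sets of the array with 1 gene symbol below the filter, the middle 50% of log2 differences ran from -1.11 to 1.27, so values of this size are common at these levels.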
